A study of Mus musculus with 7 samples.

Results

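The leucine tRNAs with anticodons TAA and CAA read the codons UUA and UUG, the smaller of the 2 blocks of leucine codons in the genetic code. Both anticodon pools and all of their isodecoders, which are tRNAs that share an anticodon and differ in the rest of the sequence, were taken from the deposited tables by name. This gave 2 of 52 anticodon pools and 8 of 217 cytosolic isodecoders, 4 with each anticodon. The rule uses names alone, though the family was chosen with earlier results of these data known. tRNA levels had been measured by QuantM-seq, where mature tRNAs receive a double-stranded adapter at both termini and are then copied into cDNA. The 7 libraries came from mouse 129S/SvEv cells. Oligodendrocyte progenitor cells (OPCs, n = 3) had been made from epiblast stem cells and kept in growth medium. Oligodendrocytes (OLs, n = 2) were OPCs differentiated with thyroid hormone T3 at 40 ng/mL, and astrocytes (Astro, n = 2) were OPCs differentiated with BMP4 at 10 ng/mL, each for about 3 days. All of them are cultured cells of the same stem cell derivation, and the study describes some undifferentiated OPCs remaining in the OL cultures. The tables list tRNAs alone, so the identity of the cells could not be checked against marker genes here. The labels number the libraries as replicates, and the tests set the differences between groups against the spread between these libraries. The study states that the OLs came from 2 of the OPC replicates, without saying which. OL and OPC libraries are therefore related, and the main fits do not use that pairing.

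The codons UUA and UUG are read by tRNAs of a different anticodon family from the CUN codons of leucine. In the standard wobble rules Leu-TAA reads UUA and can also read UUG, while Leu-CAA reads UUG alone. Leucine tRNAs carry a long variable arm, as serine tRNAs do, and both leucine families are charged by a single cytosolic leucyl-tRNA synthetase. Leu-CAA is among the few vertebrate tRNA families whose genes hold an intron, which the TSEN endonuclease removes, and its wobble cytidine is methylated by NSUN2. In RefSeq's list of genes on GRCm38 (mm10), 4 Leu-CAA genes were 105 to 107 bp long, whereas 18 genes of the CUN readers Leu-AAG, Leu-CAG and Leu-TAG were 82 or 83 bp long. The Leu-CAA genes were n-TLcaa1 at chr13:21200204-21200308, n-TLcaa2 at chr13:21914838-21914943, n-TLcaa3 at chr11:58302474-58302580 and n-TLcaa4 at chr13:21172837-21172942. The 3 listed Leu-TAA genes were 83 bp long, n-TLtaa2 at chr13:21848022-21848104, n-TLtaa3 at chr10:12922571-12922653 and n-TLtaa4 at chr19:12011086-12011168. Of these 7 genes 1 overlapped a GENCODE gene, n-TLtaa3, which lies in an exon of B230208H11Rik. The RefSeq numbering is not that of the isodecoders, so no position is assigned to an isodecoder. Each of the 8 isodecoders stands for 1 gene copy by its name in the tables.

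Values are given as RPM, in which the reads of each library are brought to the same sum over all tRNAs, with no correction for length. The libraries held 1339021 to 2627351 tRNA reads. An unseen tRNA could still have had up to 3 reads, which is 1.14 to 2.24 RPM depending on the library. No molecular identifiers were used, so such limits, and the intervals given with shares, describe counting error alone. The share of reads outside the listed cytosolic tRNAs was 3.55% and 3.90% in the OL libraries, 4.98% to 6.94% in the OPC libraries and 7.74% and 7.88% in the astrocyte libraries. RPM of cytosolic tRNAs move with that share, and rescaling to the sum of the listed cytosolic tRNAs changed no call at 0.01 for the pools and isodecoders described here.

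Leu-TAA was the larger pool of the pair in every library. It measured 29606, 30014 and 31151 RPM in OPC replicates 1 to 3, 26226 and 26103 RPM in the OLs, and 26901 and 22915 RPM in the astrocytes. All 4 differentiated libraries lay below all 3 OPC libraries, while the OL values fell between the astrocyte values. Leu-CAA, the UUG reader, measured 10808, 10459 and 9880 RPM in OPCs, 12145 and 12503 RPM in OLs, and 9781 and 12454 RPM in astrocytes. The OL values were higher than those of any OPC library, and the astrocyte values ran from below the lowest OPC value to just under the highest OL value. By the mean over all libraries Leu-TAA was rank 13 and Leu-CAA rank 32 of the 52 pools.

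**Figure D1:**
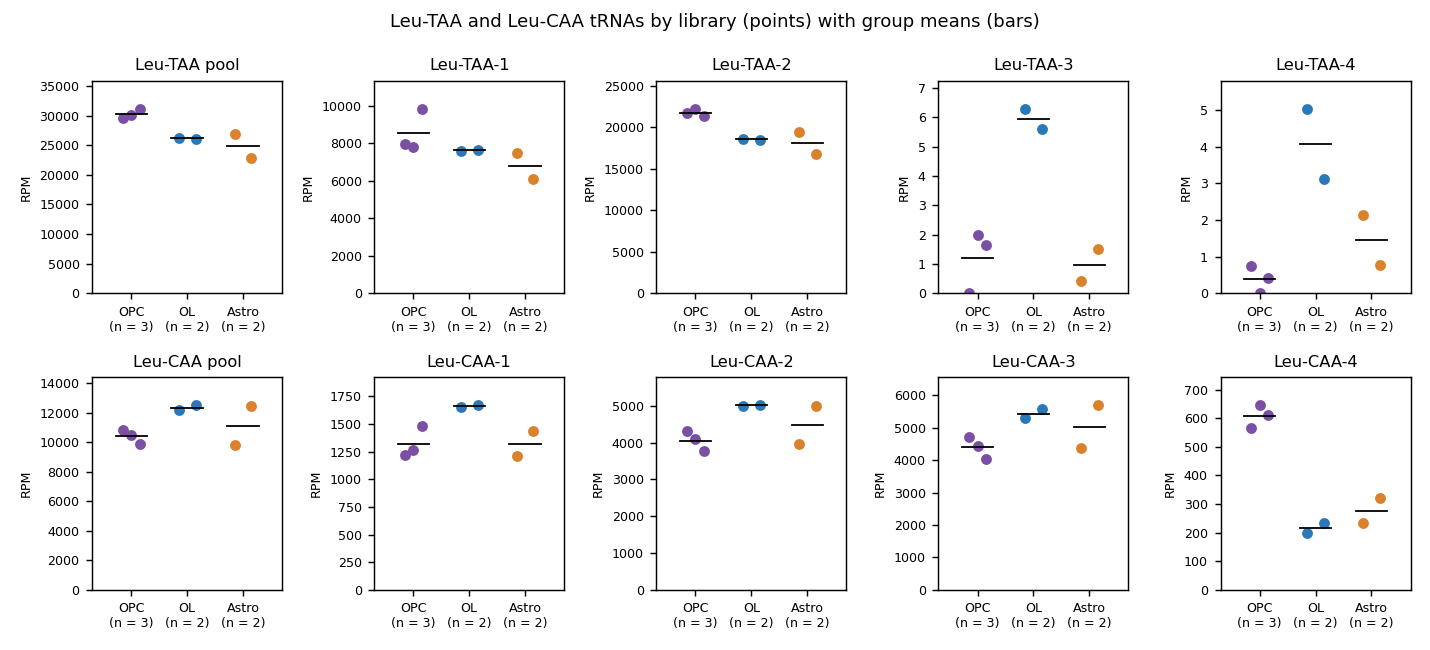
RPM of the Leu-TAA and Leu-CAA pools and of their 8 isodecoders (linear axes from 0, a scale of its own in each panel), with 1 point per library and a bar at the mean of each group (OPC n = 3, OL n = 2, Astro n = 2). Leu-CAA-4 sits between 567 and 646 RPM in OPCs and between 198 and 319 RPM in the 4 differentiated libraries, against the direction of its pool in OLs.

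The composition of the Leu-TAA pool was dominated by a pair of isodecoders. Leu-TAA-2 made up 68.4% to 74.1% and Leu-TAA-1 25.9% to 31.6% of the pool over the 7 libraries. Leu-TAA-2 measured 21677, 22236 and 21319 RPM in OPCs, 18640 and 18455 RPM in OLs, and 19446 and 16838 RPM in astrocytes. Leu-TAA-1 measured 7928, 7776 and 9829 RPM in OPCs, 7574 and 7639 RPM in OLs, and 7453 and 6075 RPM in astrocytes. For both isodecoders every differentiated library lay below every OPC library. OPC replicate 3 stood apart for Leu-TAA-1, with 31.6% of the pool against 26.8% and 25.9% in OPC replicates 1 and 2.

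Leu-TAA-3 and Leu-TAA-4 were close to the limit of detection. Leu-TAA-3 was listed at 0, 1.99 and 1.64 RPM in OPCs, 6.29 and 5.61 RPM in OLs, and 0.426 and 1.52 RPM in astrocytes. Leu-TAA-4 was listed at 0.747, 0 and 0.411 RPM in OPCs, 5.03 and 3.12 RPM in OLs, and 2.13 and 0.761 RPM in astrocytes. In both cases the OL libraries were the highest, and every OPC and astrocyte value except Leu-TAA-3 in OPC replicate 3 and in astrocyte replicate 2 and Leu-TAA-4 in astrocyte replicate 1 was at or under the level of 3 reads in its own library. Each was at most 0.024% of its pool.

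The Leu-CAA pool was divided among 3 abundant isodecoders and 1 minor one. Leu-CAA-3 held 40.7% to 45.7% and Leu-CAA-2 38.1% to 41.2% of the pool over the 7 libraries, and Leu-CAA-1 held 11.3% to 13.6% in all but OPC replicate 3, where its share was higher. Leu-CAA-3 measured 4702, 4448 and 4022 RPM in OPCs, 5286 and 5576 RPM in OLs, and 4377 and 5696 RPM in astrocytes. Leu-CAA-2 measured 4317, 4103 and 3763 RPM in OPCs, 5004 and 5023 RPM in OLs, and 3955 and 5005 RPM in astrocytes. The astrocyte libraries stood on either side of the OPC mean for both, and the ratio of Leu-CAA-3 to Leu-CAA-2 stayed between 1.06 and 1.14 in all libraries. Leu-CAA-1 measured 1223, 1262 and 1484 RPM in OPCs, 1657 and 1671 RPM in OLs, and 1215 and 1433 RPM in astrocytes. Its OL libraries were above all others, and OPC replicate 3 was again the highest OPC library.

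Leu-CAA-4, the minor isodecoder, went in the opposite direction from the rest of its pool between OPCs and OLs. It measured 567, 646 and 612 RPM in OPCs, 198 and 234 RPM in OLs, and 234 and 319 RPM in astrocytes. All OPC libraries were above all differentiated libraries, and the higher OL value was almost equal to the lower astrocyte value. As a share of the Leu-CAA pool it was 5.24%, 6.17% and 6.20% in OPCs, with 95% Wilson intervals of 4.89 to 5.62, 5.81 to 6.56 and 5.90 to 6.51. In OLs it was 1.63% (1.46 to 1.82) and 1.87% (1.69 to 2.07), and in astrocytes 2.39% (2.20 to 2.60) and 2.56% (2.40 to 2.74). By share the astrocyte libraries lay between the other groups and overlapped neither. Of all 184 isodecoder shares tested, 43.5% had no overlap between astrocytes and OPCs, and 58.7% had none between OLs and astrocytes. These shares rest on 315 to 1490 reads of Leu-CAA-4 in a library.

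The comparison of OLs with OPCs addressed whether the UUA and UUG readers change as progenitors differentiate. Neither pool passed an adjusted p of 0.01 in limma, the threshold used throughout, and no other of the 52 pools did (0%), while 25% had an unadjusted p under 0.05. The study itself, with DESeq2 in place of limma on RPM, reported Leu-UAA (Leu-TAA here) as lower in OLs at that threshold. Leu-TAA was 0.21 lower in OLs on the log2(RPM + 1) scale (SE 0.033, adjusted p = 0.0428), and Leu-CAA was 0.25 higher (SE 0.052, adjusted p = 0.0609). The means were 30257 ± 800 RPM (SD, n = 3) against 26164 ± 87.0 RPM (SD, n = 2) for Leu-TAA, and 10382 ± 468 RPM against 12324 ± 254 RPM for Leu-CAA. The groups did not overlap for either pool, as was the case for 48.1% of all pools. At an adjusted p under 0.05 Leu-TAA was 1 of 4 pools (7.69%), and it was above that level without any 1 of 4 libraries, with adjusted p from 0.0990 without OPC replicate 1 to 0.360 without OL replicate 2, but not without OPC replicate 3 (0.0493). All pools had a median change of 0.12, which median-of-ratios scaling brought to 0.02. Relative to the median as deposited, Leu-TAA was 0.33 lower and Leu-CAA 0.13 higher.

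Among the isodecoders Leu-CAA-4 fell in OLs, by 1.49 on the log2(RPM + 1) scale (SE 0.15, adjusted p = 0.000803), to 0.355 of its mean level in OPCs. It was the lowest of the 192 isodecoders tested in this comparison, and 1 of the 8 isodecoders considered here to pass, where 5.73% of all isodecoders passed and 4.69% passed as lower. Its adjusted p was 0.0186 without OL replicate 1 and 0.0142 without OL replicate 2, so the call at 0.01 needs both OL libraries. In RNA from whole cultures a smaller number of cells that hold a tRNA and less of it per cell cannot be told apart. With the looser level of 0.05 it was joined by 2 others to give 3 of 8 (18.2% of all). These were Leu-TAA-2 at -0.23 (adjusted p = 0.0392) and Leu-TAA-4 at 1.88 (adjusted p = 0.0223). Leu-TAA-4 had a mean of 0.386 RPM in OPCs and was tested only through its level in the differentiated libraries, so its call is not support. Leu-CAA-1 was at 0.34 (adjusted p = 0.103), Leu-CAA-2 at 0.31 (0.0560) and Leu-CAA-3 at 0.31 (0.0628), and these adjusted p missed both levels. Without OPC replicate 3, the library with the high Leu-CAA-1 value, Leu-CAA-1 was at 0.42. That was the largest change of the fits that left out 1 library, in which it ran from 0.28 to 0.42. Groups did not overlap for any of the 8, against 53.1% of all isodecoders, and 5 of them were higher (30.2% of all) and 3 lower (22.9%) in OLs. The 5 include Leu-TAA-3 and Leu-TAA-4, both near the limit of detection. The median change of all 192 isodecoders was 0.09.

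In RPM the changes within each pool can be added up. The mean Leu-TAA pool was smaller in OLs than in OPCs by a difference of -4093 RPM, of which Leu-TAA-2 accounted for -3196 and Leu-TAA-1 for -905 RPM. The Leu-CAA pool was larger by 1942 RPM, made up of 1040 RPM for Leu-CAA-3, 953 RPM for Leu-CAA-2, 341 RPM for Leu-CAA-1 and -393 RPM for Leu-CAA-4. The Leu-CAA pool without Leu-CAA-4 was thus larger by 2334 RPM.

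For the isodecoders near the limit of detection the change is better given by reads. Leu-TAA-3 had 19 reads in the OL libraries together and 7 in the OPC libraries, a ratio of rates of 4.49 with an exact 95% interval of 1.81 to 12.6. Leu-TAA-4 had 13 reads in OLs and 2 in OPCs, a ratio of 10.7 (2.43 to 98.1). These intervals compare the pooled libraries and not the conditions, and Leu-TAA-4 had a mean under 1 RPM in OPCs, so it was tested only through its level in the differentiated libraries. Their log2 changes, 1.80 and 1.88, were the highest of all 192 and depend on the pseudocount. They were 3.08 and 3.53 with a pseudocount of 0.1, and 0.51 and 0.44 with a pseudocount of 10.

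**Figure D2:**
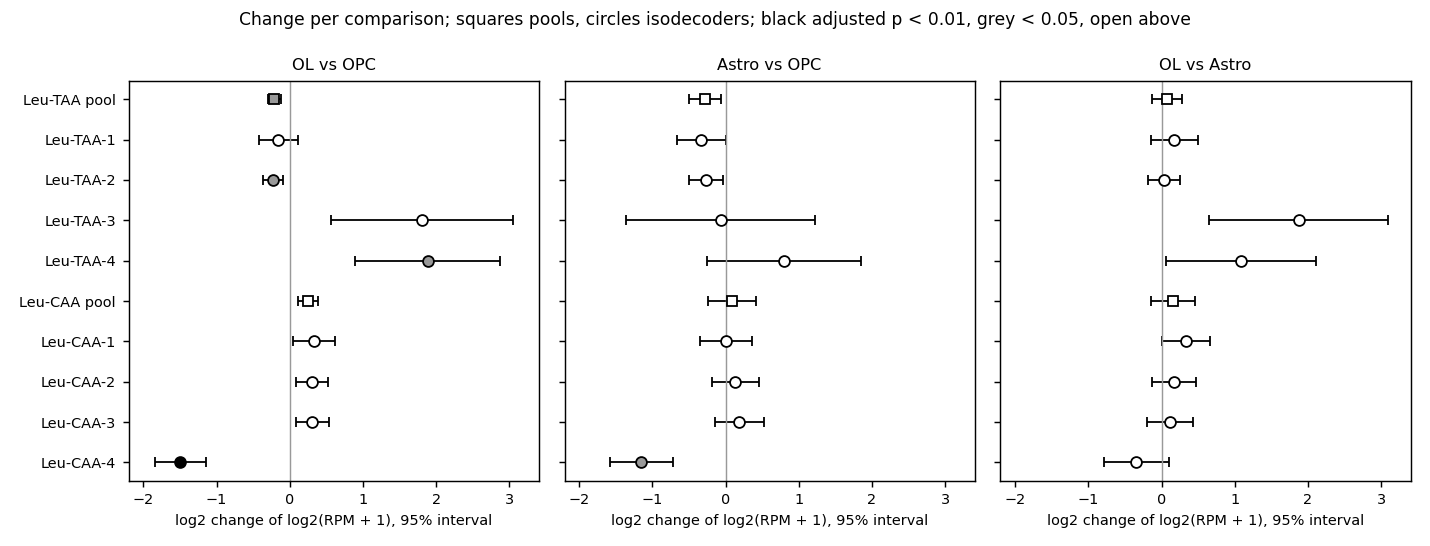
log2 change of the 2 pools (squares) and 8 isodecoders (circles) in OLs against OPCs, astrocytes against OPCs and OLs against astrocytes, with 95% intervals from limma, filled black at an adjusted p under 0.01, grey under 0.05 and open above. Leu-CAA-4 is at -1.49 in OLs and -1.15 in astrocytes, both against OPCs, and the wide intervals belong to Leu-TAA-3 and Leu-TAA-4, which rest on few reads.

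Astrocytes were compared with the same OPC libraries, so the OPC values are shared with the comparison above. No pool and none of the 192 isodecoders passed an adjusted p of 0.01 (0%), whereas 11.5% of pools and 20.8% of isodecoders had an unadjusted p under 0.05. Leu-TAA was at -0.28 (SE 0.084, adjusted p = 0.303) and Leu-CAA at 0.09 (SE 0.12, adjusted p = 0.690), and the groups did not overlap for 1 of the pair, Leu-TAA, as for 32.7% of all pools. Leu-CAA-4 was at -1.15 (SE 0.19, adjusted p = 0.0221), the fifth lowest of the 192, and was the only one of the 8 under 0.05, as were 7.29% of all isodecoders. On leaving out 1 library its change ran from -1.37 to -0.93, and its adjusted p lay on either side of both 0.01 and 0.05. It also passed 0.01 with median-of-ratios scaling (1.14e-05), with all 7 libraries in the fit (0.00513) and with the replicate number as a block (1.43e-06), fits in which 17, 10 and 24 of the 192 isodecoders passed. The replicate numbers are not known to mark pairs, so the block does not stand for matched cultures. Leu-TAA-1 was at -0.33 (adjusted p = 0.240) and Leu-TAA-2 at -0.26 (0.177), and Leu-CAA-1, Leu-CAA-2 and Leu-CAA-3 were between 0.00 and 0.19 with adjusted p from 0.451 to 0.993. The groups did not overlap for 4 of 8 isodecoders (39.6% of all), Leu-TAA-1, Leu-TAA-2, Leu-TAA-4 and Leu-CAA-4. For Leu-TAA-4 the nearest values were 0.761 RPM (2 reads, astrocyte replicate 2) and 0.747 RPM (1 read, OPC replicate 1), under the level of 3 reads. Its means were 0.386 RPM in OPCs, 1.45 RPM in astrocytes and 4.07 RPM in OLs. The OL values counted in the filter but are no part of this comparison.

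The astrocyte libraries differed from each other in these pools more than the OL libraries did. This was not particular to these pools. Over all isodecoders the chi-square per degree of freedom was 195 between the astrocyte libraries and 33.7 between the OL libraries. The coefficient of variation was 11.3% for Leu-TAA and 17.0% for Leu-CAA in astrocytes, 0.332% and 2.06% in OLs, and 2.65% and 4.51% in OPCs. Astrocyte replicate 2 had less of both abundant Leu-TAA isodecoders and more of every Leu-CAA isodecoder than astrocyte replicate 1. Without astrocyte replicate 2 the change of Leu-CAA in astrocytes was -0.09, and without astrocyte replicate 1 it was 0.26.

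OLs and astrocytes were compared in a fit of all 7 libraries. None of the 8 isodecoders passed an adjusted p of 0.01 (6.25% of all did) or 0.05 (9.38%), and 3 had an unadjusted p under 0.05 (27.1% of all). Leu-TAA was at 0.08 (SE 0.081, adjusted p = 0.571) and Leu-CAA at 0.16 (SE 0.12, adjusted p = 0.519). For Leu-CAA-4 the difference between OLs and astrocytes was -0.34, with a 95% interval of -0.79 to 0.10 (adjusted p = 0.312). Leu-TAA-3 was at 1.87 (adjusted p = 0.0583), resting on 19 reads in OLs and 5 in astrocytes. Without the OPC libraries in the fit its adjusted p was 0.00942, while in 11 of 12 alternative settings it stayed above 0.01. Its log2 change ran from 0.54 to 2.71 over those 12 settings.

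**Figure D3:**
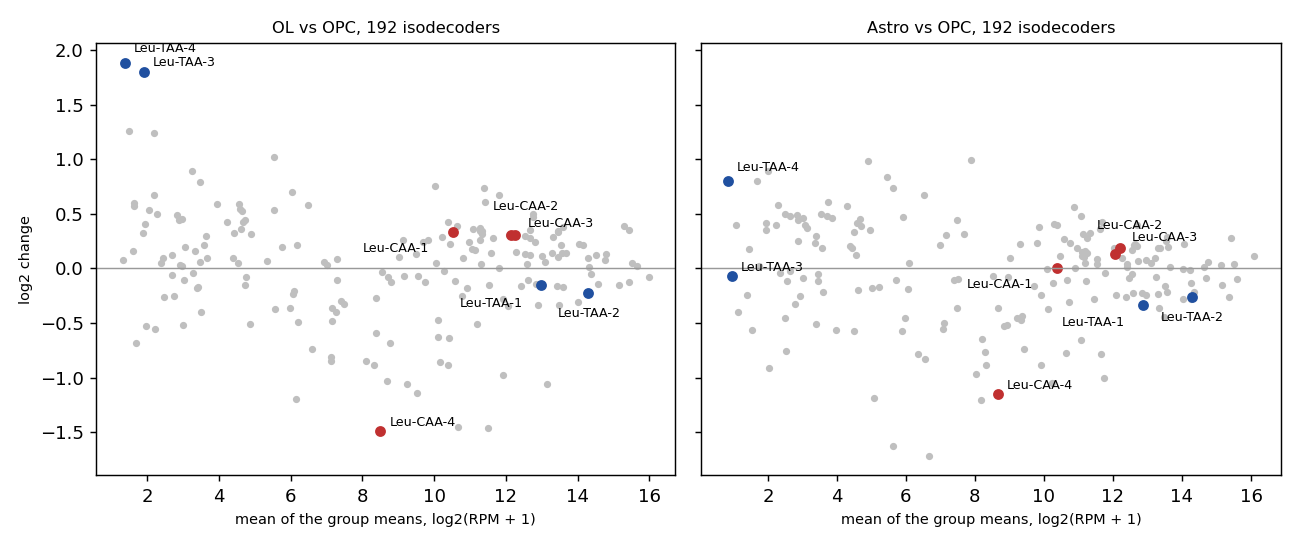
log2 change against OPCs (vertical) by level, the mean of the 2 group means as log2(RPM + 1) (horizontal), for all 192 isodecoders tested, with Leu-TAA isodecoders in blue, Leu-CAA isodecoders in red and all others in grey. Leu-CAA-4 is the lowest point of the OL panel, at -1.49, and Leu-TAA-3 and Leu-TAA-4 are its highest points, at 1.80 and 1.88, on the far left where levels are a few RPM.

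Shares within pools were compared so that a change of the whole pool, or of the RPM scale, drops out. Leu-CAA-4 fell as a share of Leu-CAA in OLs, by 1.74 on the log2 scale (SE 0.11, adjusted p = 0.00896), from 5.87% ± 0.544 (SD, n = 3) to 1.75% ± 0.168 (SD, n = 2). It was 1 of 8 to pass at 0.01, against 2.17% of the 184 shares tested. The call was lost on leaving out any 1 library, with adjusted p of 0.0131, 0.0421 and 0.0204 on leaving out OPC replicates 1, 2 and 3 in turn, and 0.0912 and 0.107 on leaving out OL replicates 1 and 2. It was also lost with the replicate number as a block (0.0672) and without the filter on low tRNAs (0.0101). In astrocytes the share was 2.48% ± 0.124 (SD, n = 2), with a change of -1.24 (adjusted p = 0.05003), and no share of any pool passed 0.01 (0%). Between OLs and astrocytes the difference was -0.50 (adjusted p = 0.0535), and 0 of 8 passed against 3.8% of all shares. The shares of Leu-TAA-1, Leu-TAA-2, Leu-CAA-1, Leu-CAA-2 and Leu-CAA-3 had log2 differences between -0.09 and 0.18 in the 3 comparisons, with adjusted p of 0.286 or more.

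**Figure D4:**
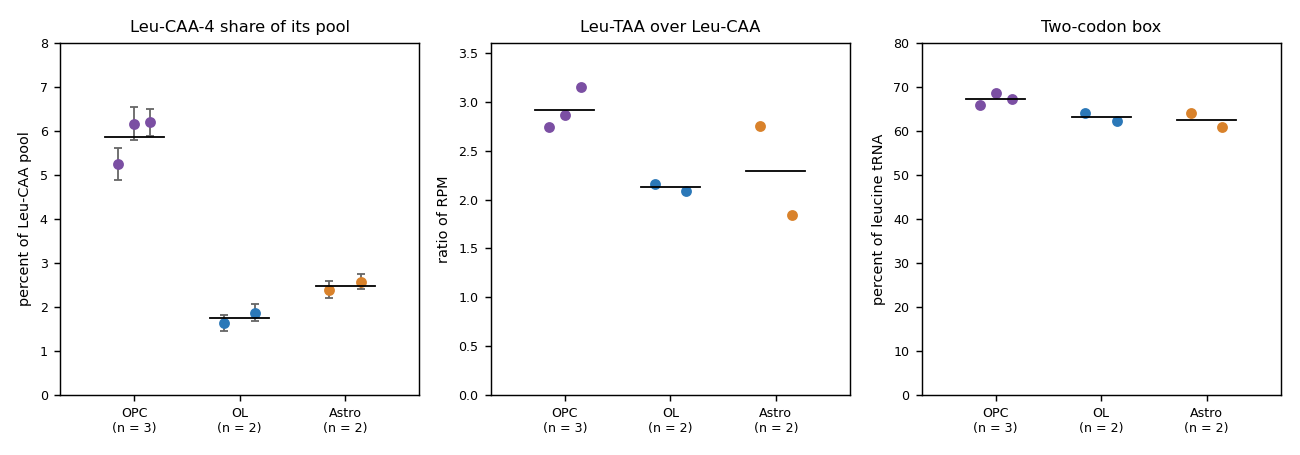
Leu-CAA-4 as a percent of the Leu-CAA pool with 95% Wilson intervals (left), the ratio of Leu-TAA to Leu-CAA RPM (middle) and the two-codon box as a percent of all leucine tRNA RPM (right), with 1 point per library and bars at group means (OPC n = 3, OL n = 2, Astro n = 2). The Leu-CAA-4 share is between 5.24% and 6.20% in OPCs and between 1.63% and 2.56% in the other libraries, and the astrocyte ratios, 2.75 and 1.84, lie far apart.

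The balance of the pair was expressed as the ratio of Leu-TAA to Leu-CAA. It was 2.74, 2.87 and 3.15 in OPCs, 2.16 and 2.09 in OLs, and 2.75 and 1.84 in astrocytes. The OL ratios were below all OPC ratios, and the astrocyte ratios lay on either side of the OL values, with 1 inside the OPC range. The difference of the log2 ratio between OLs and OPCs was -0.46 (two-sided exact permutation p = 0.1, the smallest that the design allows). Between astrocytes and OPCs it was -0.37 (exact permutation p = 0.2, smallest possible 0.1), and -0.08 without astrocyte replicate 2 or -0.66 without astrocyte replicate 1. Between OLs and astrocytes it was -0.08 (exact permutation p = 1, smallest possible 0.333), and 0.21 without astrocyte replicate 1. With Benjamini-Hochberg adjustment over these and the 3 comparisons that follow, the exact permutation p were 0.2, 0.3 and 1. No design here could reach 0.05.

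As a part of all leucine tRNA, Leu-TAA and Leu-CAA together made up 66.0%, 68.6% and 67.3% in OPCs, 64.1% and 62.3% in OLs, and 64.1% and 60.9% in astrocytes. All 4 differentiated libraries were below all OPC libraries. The difference from OPCs was -4.13 percentage points in OLs and -4.76 points in astrocytes (exact permutation p = 0.1 for each, the smallest possible, and 0.2 after adjustment). OLs and astrocytes differed by 0.623 points (exact permutation p = 1), and by -0.284 points without OL replicate 1. The sum of all leucine pools was 60407 ± 1224 RPM in OPCs, 60955 ± 1503 RPM in OLs and 57619 ± 584 RPM in astrocytes, so the OL and OPC sums differed by less than the spread between replicates.

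The CUN readers Leu-AAG, Leu-CAG and Leu-TAG, the other leucine family, were at 0.25, 0.16 and 0.22 in OLs against OPCs. At 0.01, 0 of their 3 pools (0% of all) and 0 of their 10 isodecoders (5.73% of all) passed. At 0.05 these counts were also 0 (7.69% and 18.2% of all). The median of their pools was 0.22, beside 0.12 for all 52 pools. Against OPCs, astrocytes had a median of 0.04 for these pools, beside 0.00 for all. Of the other tRNAs with a long variable arm, those of serine and selenocysteine, 1 of 15 isodecoders was higher and 0 lower in OLs at 0.01 (1.04% and 4.69% of all isodecoders), with a median of 0.05. The other families with intron-containing genes, Tyr-GTA, Ile-TAT and Arg-TCT, had 0 of 12 isodecoders past 0.01 in OLs (5.73% of all) and 3 of 12 past 0.05 (18.2% of all), with a median of 0.13. Of the other families that read the A-ending codon of a split box with a wobble T, Lys-TTT, Gln-TTG, Glu-TTC and Arg-TCT, 0 isodecoders were higher (1.04% of all) and 2 of 16 lower (4.69% of all) in OLs at 0.01, with a median of -0.07, beside 0.09 for all 192. The lowest of these 16 was at -1.46, close to Leu-CAA-4 at -1.49.

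Pools and isodecoders with the most similar pattern were sought by Pearson's r of log2(RPM + 1) over the 7 libraries, which share their RPM totals and group structure, as a description. For Leu-TAA these were Ser-CGA (r = 0.886), Ser-TGA (0.784) and Phe-GAA (0.778), and for Leu-CAA they were Asn-GTT (0.922), Leu-TAG (0.899) and Asp-GTC (0.893). Leu-TAA and Leu-CAA had an r of -0.737 with each other. Within the Leu-CAA pool Leu-CAA-2 and Leu-CAA-3 moved most closely together (r = 0.984), whereas Leu-CAA-4 had an r of -0.622 with Leu-CAA-2 and -0.612 with Leu-CAA-3. Of 184 isodecoders with another anticodon, those most like Leu-CAA-4 were Arg-TCT-5 (0.983), Lys-TTT-3 (0.972) and Asn-GTT-2 (0.952). Arg-TCT-5 measured 565, 550 and 534 RPM in OPCs, 340 and 343 RPM in OLs, and 370 and 391 RPM in astrocytes. These isodecoders were picked for this likeness, so the order of their groups follows from the choice and is given as a description.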

How the data were processed

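tRNAs were measured by QuantM-seq in 7 libraries, grouped by the deposited labels. The authors trimmed adapters and the CCA end with cutadapt, mapped reads with bowtie2 to the collapsed high-confidence mature tRNAs of GtRNAdb mm10, counted isodecoders with featureCounts and deposited RPM tables by isodecoder and anticodon, without pooling replicates. Local alignment may divide reads among near-identical isodecoders, which was not tested. The pools equalled the sums of their cytosolic isodecoders. Mitochondrial leucine tRNAs were not analysed here. The authors' DESeq2 tables hold their own comparison and were not used.

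log2(RPM + 1) was compared with limma 3.58.1 in R 4.3.3 (lmFit, eBayes, variance trend, two-sided), with Benjamini-Hochberg adjustment over 52 pools, or over 192 isodecoders whose mean was 1 RPM or more. This scale understates changes of low tRNAs. Each comparison with OPCs used the libraries of its own groups, and OLs against astrocytes used all 7. Shares were log2(RPM + 1) of an isodecoder minus that of its pool, for 184 isodecoders in pools with 2 or more, without a trend. Ratios and box shares were tested by exact permutation. Scripts were tested on simulated data.

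RPM values were 100% whole multiples of 1 read (tolerance 0.1), which gave depths and intervals, but only 43 to 55 low values per library carried the step, under the 100 required for a count test. Replicates differed beyond counting error (chi-square per degree of freedom 31.0 to 195). Members, comparison families and the rule for similar tRNAs (the 3 highest r for each pool and for the isodecoder with the largest change in OLs among those with a mean of 100 RPM or more) were chosen with earlier results of these data known.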

Additional observations from a re-analysis of the deposited data

How the results depend on the processing

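Alternatives changed the pseudocount (0.1 or 10), the filter (none, or a mean of 100 RPM), the scaling (to the sum of the listed tRNAs, or by median of ratios), the variance trend, the threshold (0.05), which libraries entered the fit, and the replicate number as a block, or left out each library. Leu-CAA-4 was lower in OLs than in OPCs under every alternative (log2 changes of -1.61 to -1.37), with adjusted p from 5.74e-10 to 0.0186, and was past 0.01 in 11 of 14. The OL against OPC count of isodecoders past the threshold, 1 of 8 as reported, was 3 at a threshold of 0.05, 4 with the replicate block (Leu-TAA-3, Leu-TAA-4 and Leu-CAA-1 in addition, with 45 of all 192 isodecoders past it, against 11 as reported), 0 without a filter (Leu-CAA-4 at 0.0139, and 1 of all 217) and 0 to 2 on leaving out a library. In astrocytes against OPCs it was 0, and 1 at 0.05, with the replicate block, with median-of-ratios scaling and with all 7 libraries in the fit (Leu-CAA-4 each time), and 0 to 1 on leaving out a library. Between OLs and astrocytes it was 0, and 1 (Leu-TAA-3, with 14 of all 192) in a fit of those libraries alone. The count of shares in OLs against OPCs, 1 as reported, was 0 with the replicate block, 0 without a filter and 0 on leaving out any OPC library. At 0.05 it was 2, where 14.1% of all 184 shares passed. Leu-TAA-4 was the other (log2 change 2.09, adjusted p = 0.0316 in limma). It was tested only through its level in the differentiated libraries, so its call is not support. The count of pools, 0 as reported, was 1 at 0.05 (7.69% of all). Over all tRNAs in OLs against OPCs, median-of-ratios scaling gave 22 isodecoders past 0.01 (11 as reported), and all 7 libraries in the fit gave 17 shares (4 as reported).

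Small changes turned sign. Leu-TAA between OLs and astrocytes was at -0.034 with median-of-ratios scaling, and Leu-TAA-2 at -0.027 on rescaling and -0.058 with median-of-ratios scaling. Leu-TAA-3 in astrocytes against OPCs was at 0.37 with a pseudocount of 0.1 and 0.13 with the replicate block. Under the block the astrocyte shares of Leu-TAA-1, Leu-TAA-2 and Leu-CAA-1 were at 0.041, -0.015 and 0.033. On leaving out a library, changes in astrocytes against OPCs ranged from -0.085 to 0.26 for Leu-CAA, -0.57 to 0.34 for Leu-TAA-3, -0.12 to 0.12 for Leu-CAA-1, -0.036 to 0.30 for Leu-CAA-2 and -0.0014 to 0.38 for Leu-CAA-3, and shares from -0.10 to 0.041 for Leu-TAA-1, -0.015 to 0.042 for Leu-TAA-2, -0.31 to 0.74 for Leu-TAA-3 and -0.17 to 0.033 for Leu-CAA-1. Between OLs and astrocytes they ranged from -0.040 to 0.19 for Leu-TAA, -0.015 to 0.33 for Leu-CAA, -0.068 to 0.14 for Leu-TAA-2 and -0.069 to 0.31 for Leu-CAA-3, and from -0.0051 to 0.031 for the Leu-CAA-2 share. The OL against OPC share of Leu-TAA-2 ranged from -0.055 to 0.0021. Between OLs and astrocytes the log2 ratio of Leu-TAA to Leu-CAA ranged from -0.37 to 0.21 and the percentage of leucine tRNA from -0.96 to 2.21 points. The cause was not tested.

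Where leaving out a library left 1 in a group, that library was assumed to vary like the other groups. The replicate numbers were not taken as pairs. Deviations correlated at 0.12 and -0.11 between OPC and OL libraries of the same number, -0.07 and 0.34 between OPC and astrocyte libraries, and -0.29 between OL and astrocyte libraries. With 2 libraries in a group the deviations mirror each other, so crossed OL and astrocyte numbers give 0.29 by construction. These values cannot decide the pairing. The methods state that the OLs came from 2 of the OPC replicates without saying which. The crossed pairing of OLs and astrocytes, added after seeing the data, gave 0 calls at all 3 levels. The values of Leu-TAA-3 and Leu-TAA-4 rest on few reads.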
